A study of Homo sapiens with 12 samples.

Results

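Huh7 is an established human cell line grown from a well-differentiated hepatocellular carcinoma, the cancer that arises from hepatocytes. The 6 control samples of the study, Huh7 cells carrying an empty vector, were examined for what such cells express, by how bright each gene's probe was and whether it stood above background. They are 6 of the 12 samples of the series, chosen by their labels alone. The other 6 samples received the same vector with a TRPC1 silencing sequence and are not compared here. Control cells were exposed to 2 µg of vector and 6 µl of FugeneHD, a lipid-based transfection reagent, and were lysed 48 h later. Per the study's methods the vector backbone also encodes neomycin resistance and green fluorescent protein, and wells held a mixture of transfected and untransfected cells. All 6 samples therefore share transfection, reagent and vector, and no untreated Huh7 cells and no normal liver were measured. A gene reported below as not detected fell short of the detection threshold on these arrays, which is not a measured fall from liver.

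Hepatocytes carry out most of the chemistry of the liver. They secrete albumin, transport proteins, clotting factors, complement and lipoproteins into plasma, turn ammonia into urea, make and store glucose, convert cholesterol into bile acids, and modify drugs and hormones for excretion. Fetal hepatocytes secrete alpha-fetoprotein, whose gene is silenced after birth and is often active again in hepatocellular carcinoma. Genes with this history are called oncofetal.

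The albumin gene family shows in 3 neighbouring genes on chromosome 4 how detection could differ between close relatives. ALB (albumin, the main plasma protein), AFP (alpha-fetoprotein) and AFM (afamin, a carrier of vitamin E) follow each other in this order, with no other annotated gene between them. ALB and AFP were detected on all 6 arrays and were among the brightest named genes. AFM was detected on none at the threshold used here, a detection p against negative control beads under 0.01. It missed that threshold narrowly, with a detection p of 0.012 to 0.025 on the 6 arrays. The promoters of ALB, AFP and AFM are printed because they are the sequences that lie in front of these 3 genes. Each is the plus strand of the 250 bases before the RefSeq start, build GRCh38.p14, at chr4:73404037-73404286 for ALB, chr4:73435971-73436220 for AFP and chr4:73481495-73481744 for AFM. Capitals mark TATAAA, at which transcription factor TFIID is known to bind near a start. They also mark the promoter element CCAAT, which reads ATTGG on the opposite strand. The last letters in capitals are GTTAAT, which form part of the sites of liver homeodomain factors.
ALB: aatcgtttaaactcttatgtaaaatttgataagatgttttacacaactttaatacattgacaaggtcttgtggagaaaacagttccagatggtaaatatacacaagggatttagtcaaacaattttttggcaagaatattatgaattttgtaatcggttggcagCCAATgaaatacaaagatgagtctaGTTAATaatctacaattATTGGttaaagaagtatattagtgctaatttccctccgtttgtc
AFP: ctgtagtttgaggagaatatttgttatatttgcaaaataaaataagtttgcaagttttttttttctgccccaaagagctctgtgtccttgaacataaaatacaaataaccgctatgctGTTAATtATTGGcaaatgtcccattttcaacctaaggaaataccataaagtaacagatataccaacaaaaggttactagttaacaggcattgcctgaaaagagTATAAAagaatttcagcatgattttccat
AFM: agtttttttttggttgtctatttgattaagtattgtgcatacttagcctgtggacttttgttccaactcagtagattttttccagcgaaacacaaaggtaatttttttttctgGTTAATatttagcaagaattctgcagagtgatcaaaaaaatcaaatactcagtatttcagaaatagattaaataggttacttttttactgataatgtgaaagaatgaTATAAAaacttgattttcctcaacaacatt
All 3 promoters held GTTAAT, including that of AFM, which fell just short of the detection threshold. Searched on both strands and each motif on its own, GTTAAT was found in 6.23% of the 35116 promoters of this length in the table, TATAAA in 10.7% and CCAAT in 32%. Of the promoters of secreted protein genes detected on all 6 arrays, 21.9% of 64 held GTTAAT, and of those of secreted protein genes detected on no array, 17.5% of 40. These letters are a description of the window and do not mark sites shown to be bound.

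Each sample was hybridised to an Illumina bead array with 48803 probes. The mean background-subtracted signal of an array was 457 to 642, and 12292 to 13462 probes per array had a detection p under 0.01, meaning a signal above nearly all negative control beads of that array. Arrays correlated with each other at r = 0.985 to 0.994 over the 11638 probes with such a p on all 6 arrays. Arrays 1 and 2, arrays 3 and 4, and arrays 5 and 6 were each other's nearest neighbours, and arrays 1 and 2 had the lowest mean signals (480 and 457). The methods do not say whether replicates were separate cultures, so the spread given below may be technical. Array 5 was left out by the study for its own comparison and is kept here. Levels are log2 intensities after background correction and quantile normalization of the 6 arrays, and values in parentheses are the lowest, the median and the highest of the 6 arrays unless stated otherwise. Probe brightness depends on the probe sequence as well as on the transcript, so the levels of different genes are an order of brightness and not of transcript number. In RNA of many cells, few cells with a transcript and little of it in every cell cannot be told apart.

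A probe was called detected when its p was under 0.01, and a gene was called detected on an array when any of its probes was. In what follows, at background means only that a gene did not pass this threshold. Weak signal is not excluded, as AFM (0.012 to 0.025), APOA4 (0.011 to 0.049) and PON1 (0.014 to 0.038) had a detection p under 0.05 on all 6 arrays. Of all probes, 11638 (23.8%) were detected on all 6 arrays, 3013 on 1 to 5 arrays and 34152 (70%) on none. The probes with a gene name covered 18776 genes. Of these genes, 8189 (43.6%) were detected on all 6 arrays, 1503 on 1 to 5 and 9084 (48.4%) on none. These shares are the background against which the counts for each list of liver genes are read. Of 273 liver function genes with a probe, in 15 lists, 151 (55.3%) were detected on all 6 arrays, 20 on some and 102 (37.4%) on none. Genes for secreted proteins were detected on all 6 in 68 of 111 cases (61.3%), and genes for metabolism and transport in 83 of 162 (51.2%).

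**Figure D1:**
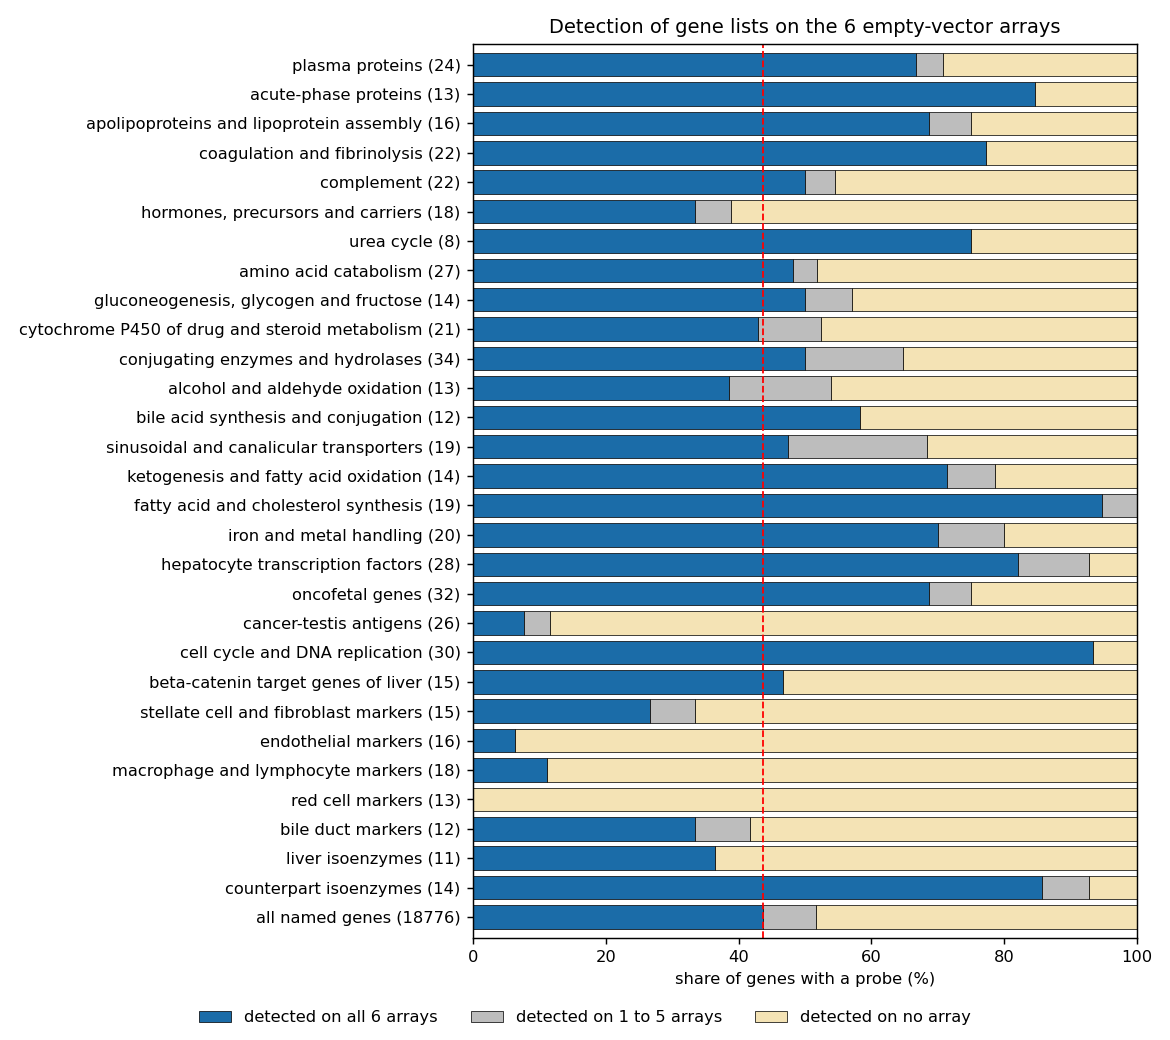
Share of the genes of each list (number with a probe in parentheses) that were detected on all 6 empty-vector arrays (blue), on 1 to 5 (grey) or on none (cream), in percent. The dashed red line marks the 43.6% of all named genes detected on all 6 arrays, which fatty acid and cholesterol synthesis (94.7%) and cell cycle genes (93.3%) exceeded most and which red cell markers (0 of 13) fell furthest below.

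All 5 marker genes of this line were detected on all 6 arrays. AFP had 14.62, 14.84 and 15 as its lowest, median and highest level, and ranked 36th in brightness among the named genes that were detected. ALB had 14.97, 15.04 and 15.21, and its other probe was detected on all 6 arrays as well. Both signals lay close to the top of the scale of these arrays, where the highest signal was 36232 to 44530. TTR (transthyretin, which carries thyroid hormone and retinol-binding protein) had 14.17, 14.37 and 14.46. APOA1, the main protein of high-density lipoprotein, had 13.49, 13.80 and 13.98. GPC3 (glypican 3, an oncofetal cell surface proteoglycan) had 12.73, 12.91 and 13.23. AFP, APOA1 and GPC3 each had their 2 highest values on arrays 1 and 2. The SD over the 6 arrays was 0.08 to 0.20 for these genes, and the label of the cells as a hepatocyte-derived line was borne out by all 5.

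**Figure D2:**
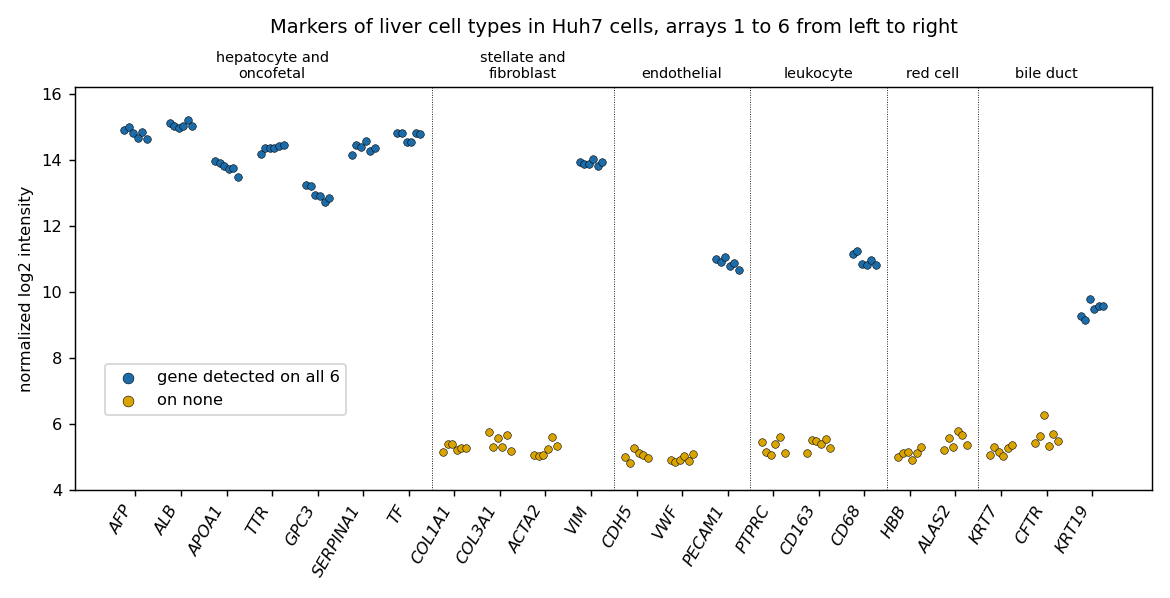
Normalized log2 intensity of markers of liver cell types, with each point an array, from array 1 to array 6 left to right within a gene. Hepatocyte and oncofetal markers lie between 12.73 and 15.21, and the other cell types' markers shown lie at background (yellow, detected on no array), except that VIM, PECAM1, CD68 and KRT19 are detected on all 6 (blue). Only some members of each list are drawn. SOX9, EPCAM, SLC4A2, TAGLN, PDGFRA, COL1A2 and CD14, not drawn, were also detected on all 6.

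The brightest named transcripts were mostly those of general cell machinery. The 20 brightest were, in order, TUBA1C, EEF1A1, FTL, ALB, ACTB, APOA2, RPS10, RPL8, OAZ1, UBB, EIF4A1, RN7SL1, TPT1, RPS25, RPL32, GAPDH, ACTG1, ATP5F1B, RPLP2 and RPL38, with mean levels from 14.88 to 15.15. They encode tubulin and actin (TUBA1C, ACTB, ACTG1), ribosomal proteins and translation factors (EEF1A1, EIF4A1), the light chain of ferritin (FTL), ubiquitin (UBB), glycolytic and mitochondrial enzymes (GAPDH, ATP5F1B), the RNA of the signal recognition particle (RN7SL1), the polyamine regulator OAZ1 and TPT1, a protein of growing cells. ALB and APOA2 were the members of the 15 liver function lists among these 20, and FTL stands in the list of iron and metal handling. APOA2, the second protein of high-density lipoprotein, had 14.91, 15 and 15.32, and the highest value, on array 1, stood apart from the other 5. Among the 100 brightest named genes 33 encoded ribosomal proteins of the cytosol and 5 were liver function genes, namely ALB, APOA2, GSTP1, TF and ALDH1A1. Of the 100 brightest probes, 43 could not be given a gene, 4 of them brighter than the TUBA1C probe, so the order is that of named genes only. The median SD of the 100 brightest genes was 0.11.

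A bright probe was not always matched by the gene's other probes. Of 6100 genes with several probes, 1656 (27.1%) had a probe detected on all 6 arrays and another detected on none, and 13 of the 61 such genes among the 100 brightest had a probe on none. ITIH5, chosen after its values were seen, had a probe at 14.46 to 15.08 and 4 others at 4.80 to 5.68, detected on no array. CCR6, also so chosen, gave 14.75 to 14.88 on its brightest probe, 10.07 to 10.43 on another and background on the last. Of the 151 liver function genes detected on all 6 arrays, 56 had several probes and 29 had a probe detected on none. These 29 include SAA1, F7, SELENOP, C3, MASP1, ASS1, ASL, PC, SULT1A1, MGST1, UGT2B17 and AKR1C4, given below by their brightest probe. Outside the liver function lists, IGF2, PEG10, EPCAM, TBX3, SREBF1, ACACA, MT1E, MT1H and CD14 also had a probe on none. Of the 102 liver function genes detected on no array, 77 were represented by 1 probe and 25 by several.

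Plasma proteins were largely present. Of 24 genes, 16 were detected on all 6 arrays (66.7%), 1 on some and 7 on none (29.2%). The shares of all named genes were 43.6% and 48.4%. TF (transferrin, the iron carrier of plasma) had 14.53, 14.81 and 14.83, and SERPINA1 (alpha-1-antitrypsin, the inhibitor of neutrophil elastase) had 14.16, 14.38 and 14.57, although 1 of its 4 probes was detected on none. The inter-alpha-trypsin inhibitor family, whose heavy chains bind hyaluronan, was uneven: ITIH2 reached 12.47, 12.62 and 12.99, ITIH1 was detected on 1 array (5.33, 5.62 and 6.92) and ITIH3 and ITIH4 on none. A1BG, FETUB, HRG (histidine-rich glycoprotein), AFM and PON1 (paraoxonase 1) were the other genes not detected, with highest values between 6.23 and 6.83.

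Acute-phase proteins, which the liver secretes in inflammation, were on all 6 arrays for 11 of 13 genes (84.6%, against 43.6% of all named genes). CRP (C-reactive protein: 4.88, 5.25 and 5.61) and SAA2 (4.94, 5.11 and 5.68) were detected on none. SAA1, the close relative of SAA2, was near the limit of detection at 7.08, 7.27 and 7.55. ORM1, which encodes the plasma glycoprotein orosomucoid, had 12.21, 12.42 and 12.51. The 3 fibrinogen chains, which form the clot, were bright and alike in rank, with FGA at 13.33, 13.43 and 13.63, FGB at 13.33, 13.51 and 13.65, and FGG at 13.18, 13.23 and 13.35. FGA and FGG each had 1 further probe detected on none.

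Of 16 apolipoprotein and lipoprotein assembly genes, 11 were detected on all 6 arrays (68.8%, against 43.6% of all named genes). APOE, a ligand of lipoprotein receptors, had 13.55, 13.68 and 13.86, and APOC1 had 13.07, 13.11 and 13.25. APOB, the structural protein of very-low-density lipoprotein, had 12.70, 12.79 and 13.14, and MTTP, the transfer protein that loads lipid onto it, had 12.50, 12.65 and 13.20. Not detected were APOA4, APOA5, APOC4 and APOF, with medians of 5.11 to 6.49. LPA, the gene of apolipoprotein(a), was detected on 2 arrays (6.36, 6.65 and 7.31).

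Clotting and fibrinolysis genes were detected on all 6 arrays in 17 of 22 cases (77.3%), with 5 on none (22.7%). The shares of all named genes were 43.6% and 48.4%. The protease inhibitor SERPINA5 (protein C inhibitor) had 12.66, 12.75 and 12.82. The 5 absent genes were F9 (5.08, 5.23 and 5.25), the factor lacking in haemophilia B, F11, F13B, PROZ and KLKB1 (plasma prekallikrein), with medians from 5.23 to 6.21. Other factors of the cascade were above background at lower levels, such as F7, which starts coagulation with tissue factor (7.54, 7.68 and 7.88), and F10 (8.79, 8.92 and 9.16).

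Complement was detected in part. Of 22 genes, 11 were on all 6 arrays, 1 on some and 10 on none, close to the background for all genes (43.6% and 48.4%). C5, which starts the terminal pathway, had 12.14, 12.33 and 12.44, and C3, the central component, had 10.25, 10.47 and 10.80. C4BPB (10.87, 11.09 and 11.25), a subunit of C4b-binding protein, and the protease MASP1 (9.91, 10.16 and 10.25) were detected as well. C4A and C4B, which differ in few bases, were both at background, with medians of 5.35 and 4.94. Of the membrane attack complex, C6, C8B, C8G and C9 were on no array, while C8A was on all 6 (8.51, 8.56 and 9.02). CFI, the protease that inactivates C3b, was detected on 2 arrays.

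Hormones, their precursors and carriers were the secreted group with the lowest share, 6 of 18 genes on all 6 arrays (33.3%). Another 11 were on none (61.1%), where all named genes had shares of 43.6% and 48.4%. IGF1 (insulin-like growth factor 1), the main target of growth hormone in liver, had 4.99, 5.36 and 6.02, and its listed binding partners IGFALS, IGFBP1, IGFBP2 and IGFBP4 had medians of 5.30 to 6.06. SHBG, the carrier of sex hormones, was also on no array, and SERPINA7 (thyroxine-binding globulin) was on 1. SELENOP, the selenium transport protein, had 12.43, 12.69 and 13.07, AGT (angiotensinogen) had 11.91, 12.02 and 12.24, and INHBE, an activin chain made by hepatocytes, had 11.50, 11.54 and 11.61. FGF19 was on all 6 arrays at 9.34, 9.63 and 9.71. It is a gut hormone that represses bile acid synthesis in hepatocytes.

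For the urea cycle 6 of 8 genes were on all 6 arrays (75%, against 43.6% of all named genes). They included the mitochondrial carriers SLC25A13 (10.75, 10.89 and 11.16) and SLC25A15 (10.00, 10.10 and 10.14) and the enzymes ASS1 (9.77, 10.00 and 10.05) and ASL (9.07, 9.25 and 9.72). OTC (ornithine transcarbamylase: 5.31, 5.39 and 5.82), which makes citrulline, and NAGS (5.69, 6.17 and 6.65), which makes the activator of CPS1, were on none. CPS1 itself, the entry enzyme of the cycle, was at 8.16, 8.30 and 8.38.

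Of 27 genes of amino acid breakdown 13 were detected on all 6 arrays (48.1%), 1 on some and 13 on none (48.1%), near the 43.6% and 48.4% of all named genes. In tyrosine breakdown the first enzymes TAT (5.20, 5.46 and 5.87) and HPD (5.37, 5.59 and 5.97) were on no array, and HGD, the next enzyme, was at 11.53, 11.60 and 11.71. Of tryptophan breakdown TDO2, which opens the ring, and KMO and HAAO were on none, whereas KYNU had 9.34, 9.45 and 9.75. The brightest of the list were GLDC (12.43, 12.60 and 12.84), which cleaves glycine, HGD and CBS (11.39, 11.44 and 11.58), which condenses homocysteine with serine. UROC1 was on no array, and PRODH, the first enzyme of proline breakdown, was on 1.

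Of 14 genes of glucose production, glycogen and fructose use, 7 were on all 6 arrays (50%), 1 on some and 6 on none (42.9%), against 43.6% and 48.4% of all named genes. G6PC1 (glucose-6-phosphatase, which releases glucose: 4.88, 5.01 and 5.51), PCK1 (the cytosolic PEP carboxykinase: 5.10, 5.55 and 5.69) and FBP1 (fructose bisphosphatase: 5.20, 5.62 and 6.04) were all at background. Those are the regulated enzymes of gluconeogenesis. The first enzyme of the pathway, PC (pyruvate carboxylase), had 10.95, 11.18 and 11.46, and PCK2, the mitochondrial form of the carboxykinase, had 10.95, 11.04 and 11.06. SLC37A4, which carries glucose-6-phosphate into the endoplasmic reticulum, had 11.06, 11.22 and 11.29. GYS2 (liver glycogen synthase), PKLR (liver pyruvate kinase) and GCKR were also on no array, and KHK, which phosphorylates fructose, was on 1.

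Cytochrome P450 genes of drug and steroid metabolism, listed with their reductase, were on all 6 arrays for 9 of 21 genes (42.9%), on some for 2 and on none for 10 (47.6%), shares near those of all named genes (43.6% and 48.4%). The CYP3A genes CYP3A4 (4.97, 5.07 and 5.36), CYP3A5, CYP3A7 and CYP3A43 were all at background, as were CYP1A2 and CYP2A6. CYP3A4 metabolises more drugs than any other P450 of adult liver, and CYP3A7 is its fetal counterpart. POR, the reductase that supplies all of them with electrons, had 9.82, 9.94 and 9.98. The brightest P450 genes of this list were CYP2J2 (9.54, 9.68 and 9.80), CYP4F12 (8.98, 9.30 and 9.55) and CYP1A1 (8.65, 9.03 and 9.35). CYP2J2 acts on arachidonic acid, and CYP1A1 is a target of the aryl hydrocarbon receptor. CYP1B1 and CYP2D6 were each on 1 array.

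Conjugating enzymes were detected on all 6 arrays for 17 of 34 genes (50%), on some for 5 and on none for 12 (35.3%). The shares of all named genes were 43.6% and 48.4%. The glutathione S-transferases GSTP1 (14.67, 14.72 and 14.84) and GSTO1 (13.67, 13.84 and 13.98), the microsomal MGST1 (12.60, 12.77 and 12.84) and the sulfotransferase SULT1A1 (12.51, 12.69 and 12.76) were the brightest. GSTP1 is known as a form that adult hepatocytes lack. Of the glucuronosyltransferases listed, UGT1A4, UGT1A6, UGT1A9, UGT2A3, UGT2B7 and UGT2B10 were on no array, UGT1A1, which conjugates bilirubin, and UGT2B4 were on 1 and UGT2B11 was on 3. UGT2B15 was also on none, and UGT2B17, which conjugates androgens, was on all 6 at 7.20, 7.55 and 8.05. This held for 1 of the 4 probes of UGT2B17, the other 3 being on none. The other families were not uniform either, with GSTA3, GSTT1, SULT1B1 and SULT1E1 on no array. Genes of these families resemble each other, and whether a probe also picks up a relative was not tested.

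Alcohol dehydrogenases were mostly at background. Of 13 genes of alcohol and aldehyde oxidation 5 were on all 6 arrays (38.5%), 2 on some and 6 on none (46.2%). These shares were near those of all named genes (43.6% and 48.4%). ADH1A, ADH1B and ADH1C, the enzymes that oxidise most ethanol in liver, and ADH4 were on no array, with medians of 4.96 to 5.48. ADH6 was on 1 array, and ADH5, the form found in all tissues, was on all 6 (8.34, 8.58 and 8.69). Aldehyde dehydrogenases were present: ALDH1A1, which makes retinoic acid, had 14.60, 14.66 and 14.80, and the mitochondrial ALDH2, which removes acetaldehyde, had 11.20, 11.33 and 11.54. ALDH3A2 had 10.29, 10.44 and 10.62. ALDH1L1 and AOX1 were on none, and ALDH8A1 was on 3.

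Bile acid synthesis was detected for 7 of 12 genes on all 6 arrays (58.3%) and for 5 on none (41.7%). The shares of all named genes were 43.6% and 48.4%. CYP7A1 (5.04, 5.12 and 5.44), the rate-limiting enzyme, CYP8B1 (4.82, 5.12 and 5.74), which makes the cholic acid branch, and CYP7B1 were at background. So were SLC27A5 and BAAT, which activate bile acids and join them to glycine or taurine. AKR1D1, which reduces the steroid ring, was bright at 14.12, 14.13 and 14.25 on the brighter of 2 probes, both on all 6 arrays. The peroxisomal HSD17B4 (12.06, 12.21 and 12.55), which shortens the side chain, the hydroxysteroid dehydrogenase AKR1C4 (11.11, 11.37 and 11.47) and CYP27A1 (10.18, 10.32 and 10.41), which starts the alternative pathway, were detected as well.

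Of 19 transporters of the blood-facing and bile-facing membranes 9 were on all 6 arrays (47.4%), 4 on some and 6 on none (31.6%). The shares of all named genes were 43.6% and 48.4%. SLC10A1, the sodium-dependent importer of bile acids and receptor of hepatitis B virus, was on none (4.78, 5.02 and 5.33), as were ABCB11, the bile salt export pump (5.09, 5.18 and 5.59), SLCO1B1, SLC22A7, ABCG2 and ABCG8. ABCB1 (P-glycoprotein: 12.09, 12.19 and 12.35), ABCC3 (11.39, 11.47 and 11.62), SLC51B (10.93, 10.98 and 11.21) and SLCO2B1 (10.69, 10.85 and 11.00) were on all 6. ABCC3 exports bile acids towards blood. SLC51B does so only together with SLC51A, which was on 3 arrays (6.40, 6.90 and 7.96). SLCO1B3 was on 5 arrays, ABCG5 on 3 and ATP8B1 on 1.

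Fatty acid and cholesterol synthesis was the most completely detected list, with 18 of 19 genes on all 6 arrays (94.7%, against 43.6% of all named genes) and none absent from every array. SCD (stearoyl-CoA desaturase) had 14.14, 14.19 and 14.34, FASN (fatty acid synthase) had 12.95, 13.25 and 13.34, and ACLY, which supplies cytosolic acetyl-CoA, had 12.50, 12.62 and 12.88. HMGCS1, which makes the HMG-CoA that enters the mevalonate pathway, had 13.70, 13.83 and 14.06. The exception was SREBF2, the transcription factor of the cholesterol pathway, which was on 1 array (5.55, 6.01 and 6.66), while SREBF1 was on all 6 (9.25, 9.30 and 9.41).

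Fatty acid oxidation and ketone synthesis were on all 6 arrays for 10 of 14 genes (71.4%, against 43.6% of all named genes). The brightest were ACADVL (12.86, 12.88 and 12.92), ECHS1 (11.97, 12.25 and 12.33), ACADM (11.42, 11.54 and 11.70) and SLC25A20 (11.12, 11.41 and 11.58). ACADVL and ACADM encode acyl-CoA dehydrogenases for very-long and medium chains, and SLC25A20 carries acylcarnitines into mitochondria. CPT1A, the liver form of the enzyme that admits long-chain fatty acids, was on no array for any of its 3 probes (5.85, 6.01 and 6.20 for the brightest). BDH1, which makes hydroxybutyrate, and PPARGC1A, a coactivator of fasting metabolism, were also on none, and ACADS was on 3.

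Iron and metal handling was on all 6 arrays for 14 of 20 genes (70%, against 43.6% of all named genes). Beside TF the list was led by FTL (14.98, 15.08 and 15.19), by TFRC, the transferrin receptor of dividing cells (13.85, 13.91 and 14.01), and by the metallothionein MT1X (12.09, 12.65 and 13.10). HAMP, which encodes the iron hormone hepcidin, was at 7.01, 7.36 and 7.93, near the limit. HJV, HFE and BMP6, which act upstream of HAMP, were on no array, and TFR2 was on 2. MT1G was on none and MT1M on 3.

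Transcription factors of the hepatocyte were mostly present, with 23 of 28 on all 6 arrays (82.1%), 3 on some and 2 on none (7.14%). The shares of all named genes were 43.6% and 48.4%. XBP1, a factor of secretory cells, had 13.94, 13.99 and 14.18, FOXA2 (13.16, 13.27 and 13.30) is a pioneer factor of endoderm, and CEBPB (12.94, 13.10 and 13.33) and CEBPA (13.01, 13.09 and 13.17) control many liver genes. FOXA2 was detected on 1 of its 3 probes, the other 2 being on none. NR1I3, the receptor that induces drug metabolism, was on no array (5.08, 5.26 and 5.44), nor was GATA6. PPARA, the fatty acid sensor, was on 2 arrays, NR0B2, the repressor induced by bile acids, on 4 and HLF on 5.

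Of 32 genes listed as oncofetal 22 were on all 6 arrays (68.8%), 2 on some and 8 on none (25%). The list is wider than the definition given above, as it also holds progenitor markers such as CD24, EPCAM, SOX9 and KRT19. It holds ALDH1A1 too, which is also counted as a liver function gene. The 68.8% is therefore not a share of genes silenced after birth. The shares of all named genes were 43.6% and 48.4%. After AFP and ALDH1A1 the brightest were CD24, a surface glycoprotein of progenitor cells (14.24, 14.41 and 14.51), and SPINK1, a secreted trypsin inhibitor (14.10, 14.22 and 14.39). The imprinted genes differed: IGF2, the fetal growth factor, was on all 6 at 7.62, 8.00 and 8.23 and PEG10 at 10.55, 10.90 and 11.51, whereas H19, which neighbours IGF2, DLK1 and PEG3 were on none. The regulators of the let-7 microRNAs also differed, with LIN28B at 12.46, 12.68 and 12.84 and LIN28A at background (4.86, 4.98 and 5.87). HMGA2 and AKR1B10 were on no array, ROBO1 was on 2 and PLAG1 on 4.

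Cancer-testis antigens, genes of germ cells that many tumours express, were nearly all at background, with 2 of 26 on all 6 arrays, 1 on some and 23 on none (88.5%, against 48.4% of all named genes). PRAME (8.75, 8.90 and 9.23) and MAGEB2 (7.21, 7.46 and 7.64) were the 2 detected genes, and each had a probe on none. MAGEA8 was on 2 arrays. MAGEA1, MAGEA2, MAGEA3, MAGEA4, MAGEA6 and MAGEA9, close relatives of each other, had medians of 5.02 to 5.78.

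Genes of the cell cycle and DNA replication were on all 6 arrays for 28 of 30 (93.3%, against 43.6% of all named genes). The replicative helicase subunits MCM7 (13.78, 13.92 and 14) and MCM3 (13.70, 13.77 and 13.85), the G1 cyclin CCND1 (13.35, 13.46 and 13.52) and the mitotic activator CDC20 (12.96, 13.05 and 13.23) were the brightest. CCNE2 (4.84, 5.03 and 5.43) and E2F1 (5.27, 6.13 and 6.26) were on none.

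Genes that beta-catenin activates in liver cells were on all 6 arrays for 7 of 15 (46.7%) and on none for 8 (53.3%), near the shares of all named genes (43.6% and 48.4%). GLUL (glutamine synthetase, the marker of cells around the central vein) was on no array for any of its 4 probes, the brightest at 5.27, 5.68 and 5.97. LGR5, NKD1, NOTUM, RHBG and CYP1A2 were on none as well. TNFRSF19 (9.17, 9.57 and 9.73), ZNRF3 (8.46, 8.66 and 8.72), which encodes a brake on the pathway, TBX3 (7.75, 7.99 and 8.22) and CYP2E1 (7.85, 7.99 and 8.20) were detected on all 6, as were AXIN2 (7.12, 7.22 and 7.31), a feedback inhibitor of the pathway, SP5 and RNF43.

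Markers of the other cells of liver were mostly at background. Of all named genes 43.6% were on all 6 arrays and 48.4% on none. No red cell marker was detected on any array (0 of 13), and the mean level of that list was 5.21 to 5.33 across arrays. Endothelial markers were on all 6 for 1 of 16 genes, PECAM1 (10.68, 10.89 and 11.07), while CDH5, VWF, KDR, TEK, TIE1 and ROBO4 were on none (list mean 5.56 to 5.66). Of 18 macrophage and lymphocyte markers the lysosomal CD68 (10.81, 10.92 and 11.24) and CD14 (7.09, 7.37 and 7.50), which hepatocytes also express, were on all 6, and the pan-leukocyte PTPRC and the macrophage genes CD163, MARCO, VSIG4, CD5L and C1QA were on none (list mean 5.69 to 5.78). Of 15 stellate cell and fibroblast markers, VIM (13.83, 13.92 and 14.02), an intermediate filament common in cultured cells, TAGLN (8.37, 9.15 and 9.38), PDGFRA and COL1A2 were on all 6, PDGFRB was on 5, and COL1A1, COL3A1, DCN, LUM, ACTA2 and DES were on none (list mean 6.59 to 6.72).

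Bile duct markers were divided. SOX9 (11.62, 11.80 and 11.89), EPCAM (11.47, 11.82 and 11.90), KRT19 (9.15, 9.53 and 9.78) and the anion exchanger SLC4A2 (10.60, 10.83 and 11.14) were on all 6 arrays. The first 3 of these also mark liver progenitor cells and stand in the oncofetal list. KRT7, CFTR, SPP1, MUC1, AQP1 and CLDN4 were on none, and PKHD1 was on 1. In all, 4 of 12 genes were on all 6 (33.3%) and 7 on none (58.3%), against 43.6% and 48.4% of all named genes. The list mean was 7.36 to 7.56 across arrays.

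Several enzymes exist as a form that predominates in adult liver and a counterpart found in other or fetal tissues. For 11 pairs listed as such both genes had a probe. The assignment is that of the list, and for ACACB and ACACA, both made in liver, it does not separate liver from other tissues. Of all named genes 43.6% were on all 6 arrays and 48.4% on none. In 6 pairs the liver form was on no array and the counterpart on all 6. These were PKLR (5.16, 5.75 and 6.23) with PKM (11.73, 11.92 and 12.12), pyruvate kinases; GYS2 with GYS1 (7.99, 8.25 and 8.34), glycogen synthases; and MAT1A (4.91, 5.23 and 6.32) with MAT2A (12.77, 12.87 and 13.07), which make S-adenosylmethionine. The others were CPT1A with CPT1B (7.10, 7.40 and 8.04), ADH1B with ADH5, and FABP1 (4.92, 5.06 and 5.15) with FABP5 (12.18, 12.32 and 12.62), fatty acid-binding proteins. In 3 pairs both were on all 6, namely the glucose transporters SLC2A2 (9.01, 9.29 and 9.42) and SLC2A1 (9.98, 10.23 and 10.77), the glycogen phosphorylases PYGL (10.24, 10.44 and 11.13) and PYGB (10.11, 10.38 and 10.45), and the acetyl-CoA carboxylases ACACB (7.26, 7.40 and 7.97) and ACACA (10.99, 11.17 and 11.49). ARG1, the arginase of the urea cycle, was on all 6 and ARG2 on 2, the only pair in which the liver form alone was on all arrays. CYP3A4 and CYP3A7 were both on none. Of counterparts whose liver form was not analysed here, HK2 (9.57, 9.69 and 10.05) and ALDOA (13.06, 13.29 and 13.37) were on all 6, ALDOA on 2 of its 4 probes.

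**Figure D3:**
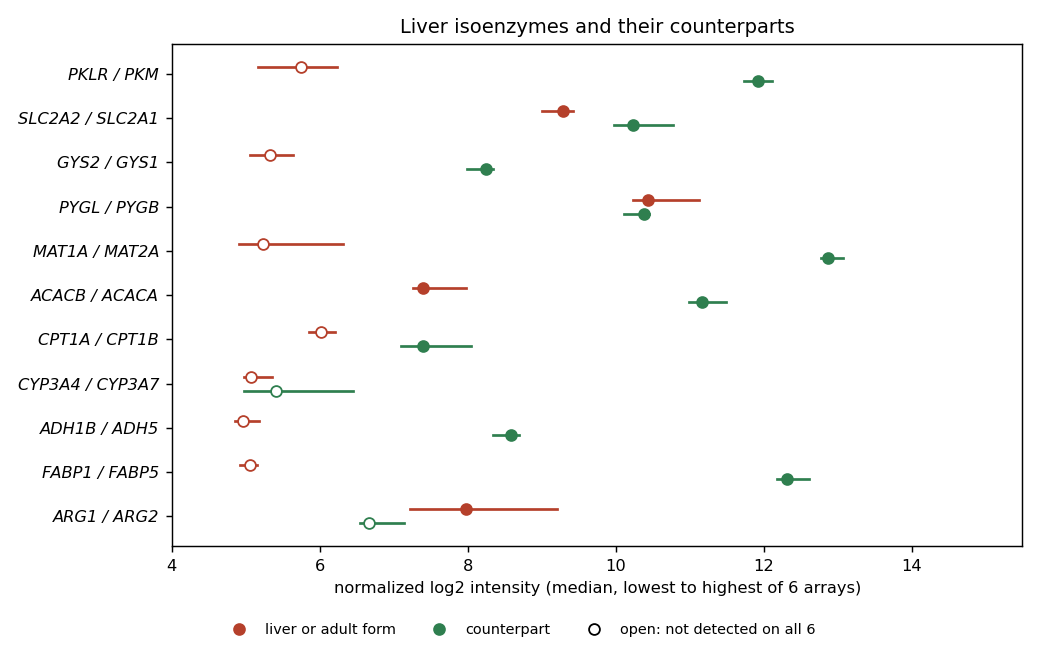
Normalized log2 intensity of 11 isoenzymes listed as liver forms (red) and their counterparts (green). Each is the median (point) with a line from the lowest to the highest of 6 arrays. ACACB is drawn as a liver form, although ACACA is made in liver too. Filled points are genes detected on all 6 arrays and open points are not. Probes differ in brightness with their sequence, so detection rather than the distance within a pair can be read, and in 6 pairs the liver form is open and the counterpart filled.

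A few further clusters of neighbouring genes are described beside ALB, AFP and AFM. They were chosen after their values were seen and do not say how often neighbours differ. On chromosome 11 APOA5 and APOA4 were on no array and the adjoining APOC3 (10.40, 10.63 and 10.70) and APOA1 on all 6. On chromosome 19, in the order APOE, APOC1, APOC4, APOC2, only APOC4 (5.24, 5.49 and 5.81) was on none, and APOC2, a cofactor of lipoprotein lipase, had 11.92, 11.97 and 12.12. On chromosome 4 the fibrinogen genes FGB, FGA and FGG were all on 6 arrays, and of the alcohol dehydrogenases ADH5 was on all 6 at the end of a row of genes on 0 or 1 array. On chromosome 14 SERPINA6, which binds cortisol (8.71, 8.88 and 9.07), SERPINA1, SERPINA5 and SERPINA3 (11.34, 11.49 and 11.88) were all detected. On chromosome 16 the metallothioneins MT2A, MT1E, MT1F, MT1H and MT1X were on all 6 arrays, with MT1M and MT1G lying among them.

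**Figure D4:**
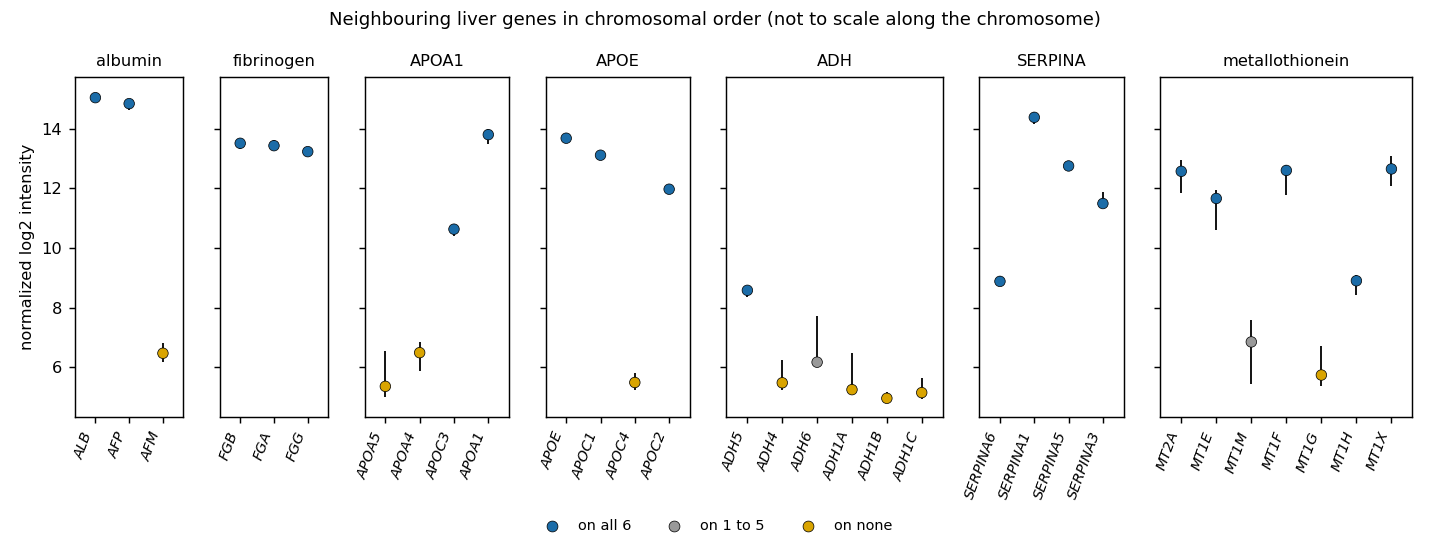
Normalized log2 intensity of neighbouring liver genes, in the order in which they lie along the chromosome and not to scale, as the median of 6 arrays with a line from the lowest to the highest. Blue genes were detected on all 6 arrays, grey genes on 1 to 5 and yellow genes on none. AFM, APOA4, APOA5 and APOC4 were detected on no array beside bright neighbours, although AFM and APOA4 had a detection p under 0.05 on all 6.

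The 6 arrays agreed closely for most genes. The median SD over arrays was 0.153 for the 11638 probes detected on all 6 (5th to 95th percentile 0.065 to 0.332). It fell from 0.216 in the dimmest of 4 equal classes of these probes to 0.113 in the brightest, so bright probes varied less between arrays. Whether their levels are more precise was not tested. The 10 genes with the largest SD were RNA28SN5, ARG1, EOLA1, HAL, SFXN1, LGALS14, ANKRD1, NOMO3, SEC24D and HP, with SDs of 0.60 to 1.13. RNA28SN5, which is ribosomal RNA, had 7.29 and 7.63 on arrays 1 and 2, 8.31 and 8.26 on arrays 3 and 4, and 9.91 and 9.94 on arrays 5 and 6. EOLA1 and the mitochondrial serine carrier SFXN1 were likewise highest on arrays 5 and 6 (10.05 and 9.99, and 8.96 and 9.11), with no overlap with the other 4 arrays (up to 8.98 and 8.04). NOMO3 was lowest on these 2 arrays (7.21 and 7.19, against 8.12 to 8.63).

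Liver genes were frequent among the variable ones. Of the 50 genes with the largest SD 6 (12%) were liver function genes, which made up 1.85% of the 8176 genes ranked. All 6 were higher on arrays 1 and 2 than on any other array. ARG1 had 9.21 and 8.79 on arrays 1 and 2 and 7.22, 7.30, 7.94 and 7.99 on arrays 3 to 6. HAL, which opens histidine breakdown, had 8.89 and 8.59 against 7.22 to 7.79, and HP (haptoglobin, the haemoglobin carrier) had 8.97 and 9.23 against 7.73 to 8.19. A2M, a broad protease inhibitor of plasma, had 9.59 and 9.45 against 8.35 to 8.48. The lectin MBL2 and the copper protein CP (8.81 and 8.69 against 7.71 to 7.98) behaved alike.

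Arrays 1 and 2, which had the lowest mean signals, were set beside arrays 3 to 6 for all genes as a description. They are not a group of the study, they were looked at after the genes above had been seen, and nothing was tested. Of 8176 genes whose brightest probe was on all 6 arrays, 1571 (19.2%) had both arrays 1 and 2 above the other 4 and 1816 (22.2%) had both below. Of 68 secreted protein genes 27 (39.7%) were above and 6 (8.82%) below. HP, A2M, MBL2 and CP, described above, are 4 of these 27, and without them 23 of 64 (35.9%) were above. Fatty acid and cholesterol synthesis had 11 of 18 above, among them CYP51A1 (10.33 and 10.12 against 9.25 to 9.63) and IDI1 (10.57 and 10.24 against 9.69 to 9.95), enzymes of the cholesterol pathway, and 2 below. The 5 metallothioneins detected on all 6 arrays, which store zinc and copper, were all below. MT1E had 10.90 and 10.59 on arrays 1 and 2 against 11.55 to 11.93, and MT2A had 11.83 and 11.86 against 12.49 to 12.94. The mean on arrays 1 and 2 minus that on arrays 3 to 6 was -1.05, -0.90, -0.87, -0.73 and -0.55 for MT1E, MT2A, MT1F, MT1X and MT1H, genes of similar sequence that may share probes' targets. Without the quantile step the counts over all genes became 673 above (8.23%) and 3490 below (42.7%), the secreted genes had 22 above and 16 below, and the 5 metallothioneins were again below. Mean signal also differed between these arrays, and its part in these differences was not tested.

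**Figure D5:**
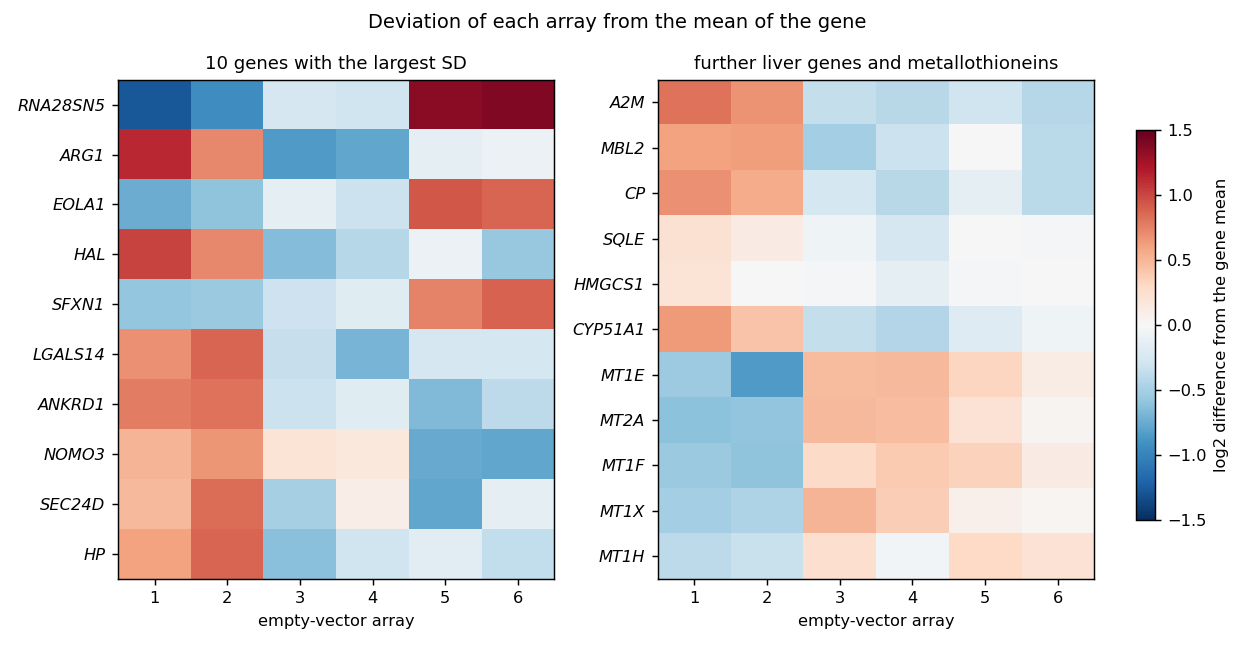
Difference of each empty-vector array from the mean of the gene, on the log2 scale (red above, blue below), for the 10 genes with the largest SD (left) and for further liver genes and metallothioneins (right). Arrays 1 and 2 are red for ARG1, HAL, HP, A2M, MBL2 and CP and blue for the 5 metallothioneins, and arrays 5 and 6 are red for RNA28SN5, EOLA1 and SFXN1.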

How the data were processed

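Total RNA (500 ng per sample) was amplified, labelled with biotin and hybridised to HumanHT-12 v3 arrays. Per the file headers and the study's methods, the deposited intensity values are GenomeStudio signals with background subtracted and no normalization between arrays. Each deposited detection p-value was taken to compare a probe with the negative controls of its array. The deposited log2 values were made by the authors with lumi (version not stated), quantile-normalized over 12 arrays, and serve as an alternative. The detection columns carry no sample name and were taken with the signal column before them (rank correlation at least 0.9948 in size, at most 0.8272 with other columns). No column lacked a sample.

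Intensities of the 6 control arrays were processed with neqc (limma 3.58.1, R 4.3.3; offset 16, quantile normalization). Gene names came from the platform annotation: 28098 probes had 1 symbol, 13 several and 20827 in all were used without a name, including 122 left out by rule. Symbols were checked against RefSeq, which also gave the promoters (GRCh38.p14). The array files give no genome build. A gene's level is that of its brightest probe. Of 570 listed genes 518 had a probe, and the others are not analysed here.

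With 1 group no test was made, and the number of arrays limits the precision. Members and gene lists were chosen with earlier results of these data known. Named genes are the 5 markers, the 20 brightest, the 10 with the largest SD, all isoenzyme pairs and, per list, the 4 brightest detected on all 6 arrays, the first 6 on none and the first 3 on some. Other genes were named after their values were seen. Alternatives were other detection thresholds, normalizations, offset, probes, the authors' values and each array left out. Counts used pandas 2.3.3, numpy 2.4.6 and scipy 1.17.1, and plots matplotlib 3.10.9.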

Additional observations from a re-analysis of the deposited data

Results flagged for a closer look

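Of 134 values examined over the 6 arrays (2 array totals and 132 named genes), 6 had a highest or lowest array far from the other 5, where chance flags about 1 in 20. APOA2 had 15.32 on array 1 and 14.91 to 15.05 on the others. CPT1B had 8.04 on array 1 and 7.10 to 7.44 on the others. ORM1 and SULT1A1 were lowest on array 4, with 12.21 (12.40 to 12.51 on the others) and 12.51 (12.67 to 12.76). FOXA2 had 13.16 on array 6 and 13.26 to 13.30 on the others, and ALDOA had 13.06 on array 3 and 13.26 to 13.37 on the others. Of the 20827 probes without a gene name here, 1453 (6.98%) were detected on all 6 arrays, and they enter no count of genes.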

How the results depend on the processing

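No paired analysis was possible because the results come from 1 group and no test. A detection p under 0.05 put 13967 probes and 9444 genes on all 6 arrays, and one under 0.001 put 9101 and 6685. Among the detection counts over all probes, all genes and the liver function lists together, that of liver function genes on no array alone moved by over 1.5 times. It was 102, and 55 at p under 0.05, a threshold that more background signals pass by construction. It was 128 at p under 0.001. The count of all named genes on no array fell from 9084 to 6067 at p under 0.05, just under 1.5 times. The 48.4% given beside the lists therefore holds for p under 0.01 only. Leaving out each array in turn gave 151 to 152 liver function genes on all arrays left and 102 to 106 on none, and leaving out arrays 1 and 2 gave 151 and 109 (chosen after seeing the data). Of 580 counts of single lists under the alternatives, 28 moved by over 1.5 times, 20 of them at p under 0.05. The 5 marker levels moved by less than 1 SD under every alternative run. Of 293 named genes, the mean level moved by over 1 SD for 159 with an offset of 50 and 195 with the authors' values. Without the quantile step the genes with arrays 1 and 2 above the others went from 1571 to 673, those below from 1816 to 3490, and the secreted genes below from 6 to 16. The median SD was 0.142 to 0.182. What is at background depends on the probe, and 77 of the 102 undetected liver function genes had 1 probe.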
